A study of Homo sapiens with 6 samples.

Results

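The genes described here are those whose mRNA was lower in KGN cells given the OGT siRNA siOGT2 and was not lower, or only marginally so, in cells given the OGT siRNA siOGT1. They were chosen by their measured levels: a mean of at least 3 FPKM (read fragments relative to gene length and library size) in the siNC libraries, a group mean of log2(FPKM + 1) at least 0.32 lower with siOGT2 than with siNC, and a siOGT1 mean no more than 0.10 below siNC. The table holds 20036 genes. That siNC level was reached by 8176 of them, and 66 met all 3 thresholds. MAP2K4 and ZNF79 were left out by the rule, which sets aside MAP2K4 and the ZNF and TRIM gene names, and 64 genes remained. Because these values picked the genes, their differences between the groups are given as a description. Counts of them past a threshold are set by the choice and support nothing.

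KGN is an established human line grown from a granulosa cell tumour of the ovary, with the WT genotype label in all groups. Cells of all 3 groups received an siRNA with Lipofectamine 3000: siNC, the control siRNA, or siOGT1 or siOGT2, both designed against OGT mRNA. RNA was taken 48 hours later and 2 libraries were sequenced per group, 6 in all. Nothing in the labels says that the 2 libraries of a group came from separate cultures, so the SDs and p-values here cover only the spread between these libraries, which may be technical.

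OGT encodes O-GlcNAc transferase, which adds a single N-acetylglucosamine sugar to proteins of the nucleus and cytosol, and OGA encodes the enzyme that takes it off again. A pair of siRNAs against one mRNA share the intended target and differ in sequence. As background, an siRNA guide strand cleaves an mRNA that it pairs with along its length, and it can also lower mRNAs whose 3′ UTR pairs only with its seed, a short stretch near its 5′ end. Shared short words in 3′ UTRs were therefore counted beside the mRNA levels.

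OGT mRNA was lower with both siRNAs. It measured 22.4 and 23.4 FPKM with siNC, 13.8 and 12.9 FPKM with siOGT1, and 14.3 and 14.7 FPKM with siOGT2, so that no siOGT library reached the siNC range. The log2 fold changes were -0.74 ± 0.0435 (SE, limma adjusted p = 9.3e-06) for siOGT1 and -0.63 ± 0.0435 (SE, limma adjusted p = 8.88e-06) for siOGT2. OGT differed between the siRNAs by 0.11 ± 0.0435 (SE, limma adjusted p = 0.123), which did not pass. OGA fell with siOGT2 by 0.17 on the log2 scale (SE 0.0295, limma adjusted p = 0.00238), from 64.1 and 64.8 FPKM to 57.7 and 56.7 FPKM, and lay at 60.9 and 59.8 FPKM with siOGT1 (limma adjusted p = 0.0574).

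Each library held 16756649 to 21416489 reads, recovered from the FPKM values. Of 16 granulosa cell markers 9 had a mean of at least 1 FPKM, among them NR5A1 and FOXL2, whereas FSHR was listed at 0 in every library. Summed granulosa markers ran from 80.7 to 89.3 FPKM over the 6 libraries. None of 9 leukocyte markers reached 1 FPKM (sums 0.475 to 0.91), and endothelial markers summed to 2.1 to 2.95 FPKM. Theca and stroma markers summed to 389 to 443 FPKM, mostly the collagens COL1A1 and COL1A2, with INSL3 listed at 0. Summed epithelial markers were 40.1 and 40.9 FPKM with siNC, 43.3 and 40.2 FPKM with siOGT1, and 46.6 and 49.6 FPKM with siOGT2. This was mostly the keratins KRT7 and KRT14, the 2 of 6 markers with a mean of at least 1 FPKM. The part of this in the levels below was not tested. In bulk RNA, fewer cells that express a gene and less of its RNA per cell cannot be told apart.

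The heptamer ATAGTGT lies in the 3′ UTR of 21 of the 64 genes (32.8%), against 11.2% of tested genes (mean of at least 1 FPKM). It was taken from an alternative ranking of heptamers that used the levels by which the 64 genes were chosen, so this share is no test. The main ranking put CGTACTC first, which 1.56% of the 64 genes and 1.34% of tested genes hold. Sites of the 8 ATAGTGT carriers with the largest siOGT2 difference are shown to make the word visible. Each line gives 27 bases of the mRNA strand, 5′ to 3′, with the heptamer in capitals, from GENCODE 29 transcripts at GRCh38 coordinates.
HSPB8, chr12:119193993-119194019, plus strand: gattccctggATAGTGTagtggtagat
FNBP1L, chr1:93552647-93552673, plus strand: aaagccaacaATAGTGTaccatttttc
FNBP1L, chr1:93554074-93554100, plus strand: cagctgacatATAGTGTattacctttg
FNBP1L, chr1:93554592-93554618, plus strand: tcatttaaagATAGTGTtctctgttga
FOXN2, chr2:48378932-48378958, plus strand: ttgccatcatATAGTGTataaaaatgt
PPP3R1, chr2:68179050-68179076, minus strand: ttacagaaaaATAGTGTaaacattatt
LIF, chr22:30240807-30240833, minus strand: cagagtagacATAGTGTgtggggttgg
RRAGB, chrX:55758581-55758607, plus strand: caaggttctaATAGTGTttaaatgtac
PHLPP2, chr16:71645060-71645086, minus strand: aagactcattATAGTGTatttttgata
BTG2, chr1:203309509-203309535, plus strand: taattgtatgATAGTGTttttatatgg

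An A followed it in HSPB8, FOXN2, PPP3R1, PHLPP2 and the first and second FNBP1L sites. The target mRNA held the same letters. In the longest OGT mRNA, of 5461 bases, ATAGTGT occurred at 2 places, one before the 3′ UTR, in the coding sequence, and one within the 3′ UTR.
OGT, chrX:71567509-71567535, plus strand: cgtgttcccaATAGTGTactctggctg
OGT, chrX:71574708-71574734, plus strand: tccaaaagtgATAGTGTgtgtaagatt

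At least 1 copy was present in the longest mRNA of 14.5% of the tested genes, and 2 or more in 2.4%. With siRNA sequences not given in the sources used here, whether ATAGTGT pairs with siOGT2 was not tested.

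Over the 64 genes the difference between siOGT2 and siNC ran from -0.59 to -0.32 on the log2(FPKM + 1) scale, with a median of -0.36. That between siOGT1 and siNC ran from -0.098 to 0.30, with a median of -0.05. As a share of the siNC level, siOGT2 ran from 59.7% (NUAK2) to 79.4% (JMJD1C) with a median of 75.65%, and siOGT1 had a median of 97.05%. No gene reached a 2-fold difference. For comparison, the median over all 10547 tested genes (mean of at least 1 FPKM) was 0.045 with siOGT2 and 0.032 with siOGT1.

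Both siOGT2 libraries lay below all 4 others for 63 of the 64 genes, against 17.2% of the tested genes, and since these values chose the genes nothing is read from that share. The exception was H4C14, a replication-dependent histone H4 gene, at 3.94 and 2.25 FPKM with siNC, 5.00 and 1.39 FPKM with siOGT1, and 1.15 and 3.02 FPKM with siOGT2. Its libraries overlapped between all groups, its mRNA normally has no poly(A) tail, and without the first siOGT2 library its difference from siNC was 0.005. In the limma fit over all genes (adjusted p under 0.05) 13.4% of the tested genes were lower and 22.1% higher with siOGT2 than with siNC, and 8.35% lower and 8.24% higher than with siOGT1. The rule fixed on which side the 64 genes fall, 63 of them among the lower calls of both comparisons, so this count is no test of them. Under a trimmed-mean scaling the calls for siOGT2 against siNC over all genes moved from 2329 higher and 1411 lower to 1435 higher and 1834 lower.

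The siOGT1 levels lay on both sides of siNC, more often slightly below it. Their median difference was -0.05, against 0.032 over all tested genes. Both siOGT1 libraries lay below both siNC libraries for 22 genes (21.3% of the tested genes), above both for 12 (39.2%), and overlapped them for 30. The siOGT1 mean was above siNC for 19 genes and below it for 45, and for 13 and 51 under the trimmed-mean scaling. Over all tested genes limma called 8.1% lower and 9.51% higher with siOGT1 than with siNC. Of the 64 genes none was among the lower calls and 2, SPANXA2 and PPP3R1, were among the higher ones. The rule used this comparison and removed genes that were lower with siOGT1, so these counts describe the choice and are no test.

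**Figure D1:**
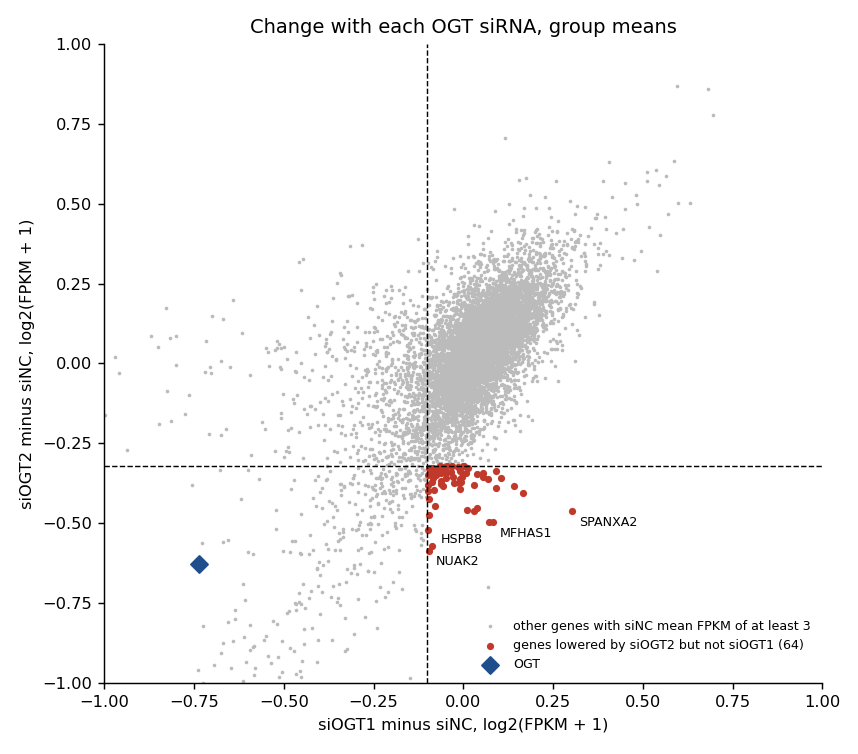
Each point is a gene with a siNC mean of at least 3 FPKM. The horizontal axis is siOGT1 minus siNC and the vertical axis siOGT2 minus siNC, as differences of mean log2(FPKM + 1), n = 2 libraries per group. Red points are the 64 genes in the window set by the dashed thresholds (-0.32 and -0.10), the blue diamond is OGT at -0.74 and -0.63, and the grey point below the red ones at -0.70 is MAP2K4. A further 67 genes lie outside the axes.

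At both log2 thresholds the nearest genes had nearly the same values on either side. PRPF39 (-0.3202), JMJD1C (-0.3205) and MTF2 (-0.321) were just inside the siOGT2 threshold, and PNRC1 (-0.3197), IRAK2 (-0.3188) and RELB (-0.3179) just outside. LIF (-0.0984), TCP11L2 (-0.0979) and CLDN1 (-0.0976) were just inside the siOGT1 threshold, and LRRC37B (-0.1021), ASPM (-0.1034) and KLF6 (-0.1059) just outside. At the siNC minimum the gap was wider: H4C14 (3.09 FPKM), SCG2 (4.10 FPKM) and NR4A3 (4.24 FPKM) were inside, and LRRTM2 (2.63 FPKM), FAM72A (2.46 FPKM) and GUCA1C (2.33 FPKM) outside.

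Signalling genes held the member with the largest difference, NUAK2, which met the rule in only 5 of 11 alternative settings. NUAK2, an AMPK-related kinase, measured 4.52 and 5.32 FPKM with siNC, 4.73 and 4.34 FPKM with siOGT1, and 2.83 and 3.04 FPKM with siOGT2, which is 59.7% of siNC. MFHAS1, a leucine-rich repeat protein of innate immune signalling, stood at 9.16 and 8.48 FPKM with siNC, 9.42 and 9.37 FPKM with siOGT1, and 6.40 and 5.54 FPKM with siOGT2. PPP3R1, the regulatory B subunit of the phosphatase calcineurin, had 16 FPKM in both siNC libraries, 17.9 and 18.2 FPKM with siOGT1, and 11.6 and 12.1 FPKM with siOGT2. For NUAK2 siOGT1 overlapped siNC, whereas for MFHAS1 and PPP3R1 both siOGT1 libraries were the highest of the 6 and both siOGT2 libraries the lowest.

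Further members act in nutrient and growth factor signalling. PHLPP2, a phosphatase that removes an activating phosphate from AKT, read 5.23 and 5.47 FPKM with siNC, 5.73 and 5.79 FPKM with siOGT1, and 3.90 and 3.78 FPKM with siOGT2. IRS2, an adaptor of the insulin receptor, read 12.1 and 12.3 FPKM, then 12 and 12.4 FPKM, then 9.59 and 9.48 FPKM in the same order. FRS2, an adaptor of the FGF receptors, read 25.8 and 27.0 FPKM with siNC, 25.1 and 25.4 FPKM with siOGT1, and 20.5 and 19.8 FPKM with siOGT2. The proteins thus include both a brake on AKT and an upstream adaptor, and their mRNAs lay at 71.8% (PHLPP2) and 78.3% (IRS2) of siNC with siOGT2. RRAGB, a Rag GTPase that brings mTORC1 to lysosomes, lay at 73.5%. Of 40 tested genes of PI3K, AKT and mTOR signalling, limma called 10 lower and 4 higher with siOGT2. With siOGT1 it called 2 lower and 1 higher. The list medians were 0.003 and 0.038, beside 0.045 and 0.032 over all tested genes. Among all tested genes 13.4% were lower and 22.1% higher with siOGT2, and 8.1% and 9.51% with siOGT1.

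A group of 11 genes encodes transcription regulators, with siOGT2 levels from 70.3% to 78.8% of siNC. KLF10, a TGF-beta-induced zinc finger repressor, was the most abundant of the 64, at 232 and 235 FPKM with siNC, 237 and 248 FPKM with siOGT1, and 185 and 183 FPKM with siOGT2. CREBRF, a regulator of CREB3-type factors, measured 16.6 and 16.8 FPKM, then 15.2 and 15.9 FPKM with siOGT1, then 12 and 11.5 FPKM with siOGT2. FOXN2, a forkhead factor, measured 24.1 and 25.6 FPKM with siNC, 25.2 and 25.9 FPKM with siOGT1, and 18.6 and 17.2 FPKM with siOGT2. In each the siOGT2 libraries were the lowest of the 6, while with siOGT1 KLF10 lay above siNC, CREBRF below it and FOXN2 across it.

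KLF4, a reprogramming factor, was the other Kruppel-like member of the 12 of that family tested, at 5.52 and 5.57 FPKM with siNC, 5.07 and 5.38 FPKM with siOGT1, and 4.37 and 4.06 FPKM with siOGT2. CCNT2, a cyclin of the elongation kinase P-TEFb, stood at 15.3 and 15.1 FPKM, then 14.8 and 15.3 FPKM, then 11.8 and 11.2 FPKM. NR4A3, an orphan nuclear receptor of the immediate-early class, stood at 4.15 and 4.32 FPKM with siNC, 4.28 and 3.99 FPKM with siOGT1, and 3.18 and 3.01 FPKM with siOGT2. The siOGT1 range of CCNT2 and NR4A3 overlapped siNC. GATA3, MAFG (a small Maf partner of NRF2), TSC22D2, ZBTB34 and TCEAL7 lay between 74% and 78.8% of siNC with siOGT2. NRF2 target genes, the list that holds MAFG, went mostly the other way: 2 fell and 20 rose of 32 tested with siOGT2 (2 and 14 under the trimmed-mean scaling). Among all tested genes 13.4% fell and 22.1% rose, and under that scaling 1834 fell and 1435 rose of 10548.

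Growth arrest genes of the BTG/TOB family, which bind the deadenylase complex that shortens poly(A) tails, were represented by BTG2 and BTG3. BTG2, a p53 target, measured 72.9 and 70.6 FPKM with siNC, 76.2 and 82.2 FPKM with siOGT1, and 56.2 and 53.2 FPKM with siOGT2. BTG3 measured 27.7 and 25.3 FPKM, then 24.0 and 25.5 FPKM, then 21.5 and 20.4 FPKM. With siOGT1 BTG2 was above siNC in both libraries and BTG3 was not. Of 28 p53 targets tested, 15 fell and 3 rose with siOGT2, and 4 fell and 6 rose with siOGT1 by limma. The medians of that list were -0.15 and 0.06, beside 0.045 and 0.032 over all tested genes. Among all tested genes 13.4% fell and 22.1% rose with siOGT2, and 8.1% and 9.51% with siOGT1.

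**Figure D2:**
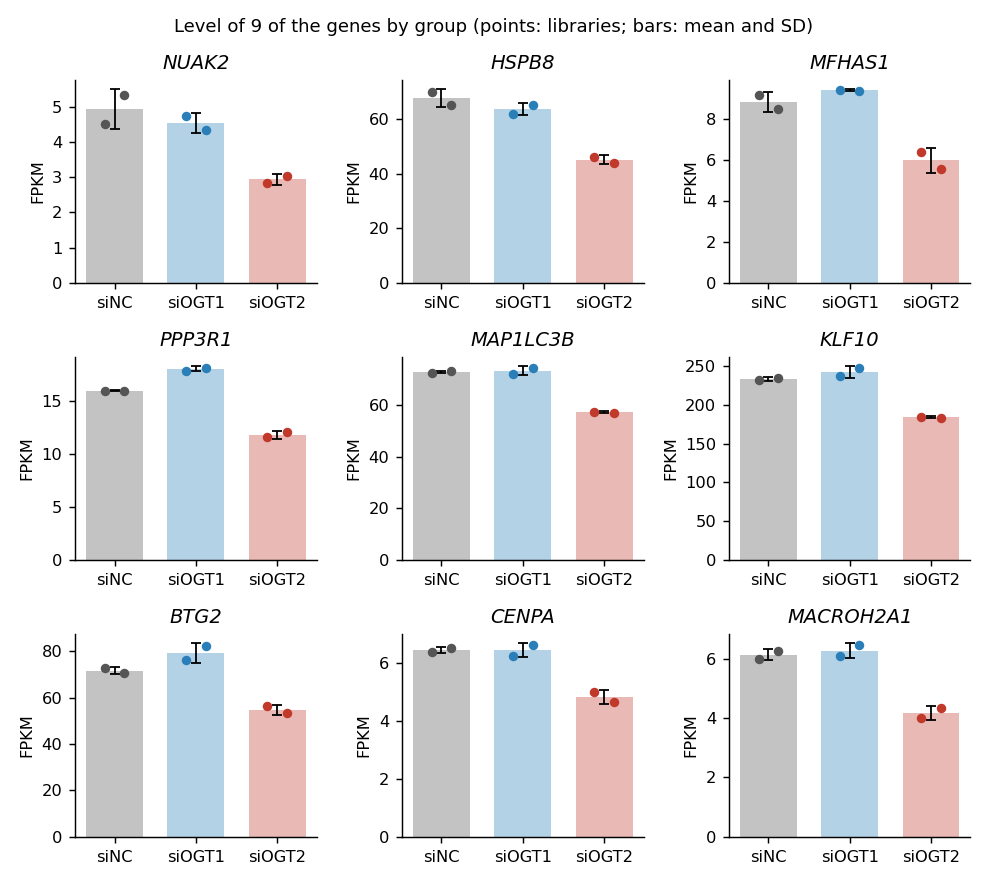
Levels of 9 of the 64 genes in FPKM on axes that start at 0, for siNC, siOGT1 and siOGT2. Points are libraries, bars the mean and whiskers the SD (n = 2). Both siOGT2 points lie below the other 4 in each panel, for example at 185 and 183 FPKM for KLF10 against 232 to 248 FPKM in the other libraries.

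Chromatin genes numbered 8. MACROH2A1, a histone variant of silent chromatin, read 5.99 and 6.27 FPKM with siNC, 6.10 and 6.45 FPKM with siOGT1, and 4.01 and 4.35 FPKM with siOGT2, or 68.2% of siNC. HMGB2, a DNA-bending protein, read 24.8 and 27.0 FPKM, then 25.2 and 26.2 FPKM, then 19.2 and 21.5 FPKM. JMJD1C, a demethylase-family protein, read 26.5 and 26.7 FPKM, then 25.8 and 25.6 FPKM, then 21.9 and 20.4 FPKM. Levels with siOGT1 overlapped siNC for MACROH2A1 and HMGB2 and lay slightly below it for JMJD1C. ING3 and ARID4B, subunits of acetyltransferase and deacetylase complexes, and MTF2, a Polycomb accessory protein, lay at 76.1%, 78.7% and 77.5% of siNC with siOGT2. H4C8, a second histone H4 gene, lay at 76.9%, and as with H4C14 its reads may be shared with the other copies of the gene.

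A trio of kinetochore genes belonged to the 64. CENPA, the histone H3 variant that marks centromeres, stood at 6.37 and 6.51 FPKM with siNC, 6.24 and 6.59 FPKM with siOGT1, and 4.98 and 4.65 FPKM with siOGT2. TTK, the MPS1 kinase of the spindle checkpoint, stood at 7.99 and 8.79 FPKM, then 7.62 and 8.73 FPKM, then 6.28 and 6.56 FPKM. CENPL, a centromere protein of the constitutive complex, stood at 8.93 and 7.61 FPKM, then 7.73 and 8.05 FPKM, then 5.96 and 6.23 FPKM. In all 3 the siOGT1 and siNC libraries overlapped and siOGT2 was lower in both libraries.

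Among the wider set of G2/M and mitosis genes, a part was lower with both siRNAs. Of 40 tested, 32 fell with siOGT2 and 11 with siOGT1 by limma, and none rose with either. The median log2 fold changes were -0.25 and -0.10. Among all tested genes 13.4% fell with siOGT2 and 8.1% with siOGT1, with medians of 0.045 and 0.032. AURKB, a mitotic kinase that is not among the 64, averaged 8.28 FPKM with siNC, 6.76 FPKM with siOGT1 and 5.64 FPKM with siOGT2. CENPA and TTK belong to this list, in which 17 genes were lower and 4 higher with siOGT2 than with siOGT1 by limma. The shares over all tested genes were 8.35% lower and 8.24% higher.

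RNA processing genes were led by CLK1, a kinase that phosphorylates SR splicing factors, whose siNC and siOGT1 levels were nearly equal. It measured 36.6 and 36.5 FPKM with siNC, 36.3 and 36.4 FPKM with siOGT1, and 28.2 and 27.1 FPKM with siOGT2. PRPF39, a U1 snRNP-associated factor, measured 19.3 and 19 FPKM, then 18.3 FPKM in both siOGT1 libraries, then 15.1 and 15.2 FPKM. FASTKD5, which processes mitochondrial transcripts, and SCAF4, which acts at transcript ends, lay at 75.5% and 78.2% of siNC with siOGT2. Of 60 splicing factors tested, 11 fell and 9 rose with siOGT2 by limma, and 18 fell and 3 rose under the trimmed-mean scaling. Among all tested genes 13.4% fell and 22.1% rose, and under that scaling 1834 fell and 1435 rose of 10548.

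Autophagy genes among the 64 cover successive steps. WIPI1 binds the lipid of forming autophagosomes, MAP1LC3B encodes the LC3B protein conjugated to their membrane, and STX17 is the SNARE by which they fuse with lysosomes. MAP1LC3B stood at 72.7 and 73.3 FPKM with siNC, 72.1 and 74.7 FPKM with siOGT1, and 57.6 and 57.2 FPKM with siOGT2. WIPI1 stood at 6.8 and 7.25 FPKM, then 7.15 and 7.51 FPKM, then 5.09 and 5.44 FPKM. STX17 stood at 9.91 and 10.1 FPKM, then 10.2 and 9.63 FPKM, then 7.89 and 7.74 FPKM. All 3 overlapped between siNC and siOGT1.

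HSPB8, a small heat shock protein that works with BAG3 in selective autophagy, had the second largest difference of the 64. It measured 69.8 and 65.2 FPKM with siNC, 61.9 and 65.0 FPKM with siOGT1, and 46.2 and 43.9 FPKM with siOGT2, which is 66.7% of siNC. Its siOGT1 libraries both lay just under siNC, and its siOGT2 libraries far under both. Of the 53 autophagy and lysosome genes tested, 11 fell and 3 rose with siOGT2, and 2 fell and 5 rose with siOGT1 by limma. The medians were -0.004 and 0.034, beside 0.045 and 0.032 over all tested genes. Among all tested genes 13.4% fell and 22.1% rose with siOGT2, and 8.1% and 9.51% with siOGT1.

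Ubiquitin ligases and their adaptors numbered 5. RNF11, a RING protein of the A20 complex, read 67.8 and 69.1 FPKM with siNC, 72.4 and 73.5 FPKM with siOGT1, and 55.2 and 52.8 FPKM with siOGT2, so that it lay above siNC with one siRNA and below it with the other. FBXO38, KLHL28, RNF19B and SH3RF1 lay at 74.8%, 78%, 78.2% and 78.8% of siNC with siOGT2. Of 104 tested ubiquitin genes, 22 fell and 16 rose with siOGT2 by limma (32 and 6 under the trimmed-mean scaling). The median was 0.007, beside 0.045 over all tested genes. Among all tested genes 13.4% fell and 22.1% rose, and under that scaling 1834 fell and 1435 rose of 10548.

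Membrane and trafficking genes numbered 7. FNBP1L, an F-BAR protein that couples membrane curvature to actin and that carries 3 of the heptamers shown above, stood at 7.51 and 8.03 FPKM with siNC, 8.23 and 8.20 FPKM with siOGT1, and 4.84 and 5.60 FPKM with siOGT2. LYSET, which is needed to tag lysosomal enzymes with mannose phosphate, stood at 6.04 and 6.48 FPKM, then 6.06 and 6.58 FPKM, then 4.72 and 3.87 FPKM. SLC15A4, a lysosomal histidine and peptide transporter, stood at 16.5 and 15.6 FPKM, then 17.5 and 17.1 FPKM, then 12.8 and 11.8 FPKM. FNBP1L and SLC15A4 were above siNC in both siOGT1 libraries, and LYSET overlapped it. SLC19A2, a thiamine transporter, the arrestin ARRDC4, the lectin CLEC2B and the tight junction protein CLDN1 lay at 74.6% to 76.7% of siNC with siOGT2. Of 109 membrane trafficking genes tested, 15 fell and 24 rose with siOGT2 by limma, and 26 fell and 15 rose under the trimmed-mean scaling. The shares over all tested genes were 13.4% and 22.1%, and under that scaling 1834 fell and 1435 rose of 10548. The list median was 0.038, beside 0.045. Of the 172 solute carriers tested, SLC15A4 and SLC19A2 were the 2 among the 64.

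Secreted factors comprised LIF, FSTL5 and SCG2. LIF, a cytokine of the interleukin 6 family that signals through gp130, read 14.6 and 14.7 FPKM with siNC, 14 and 13.2 FPKM with siOGT1, and 10.8 and 10.9 FPKM with siOGT2. Both siOGT1 libraries of LIF lay below siNC, at the edge of the rule. Of 21 NF-kB and cytokine genes tested, 14 fell and none rose with siOGT2, and 6 fell and 1 rose with siOGT1 by limma. Among all tested genes 13.4% fell and 22.1% rose with siOGT2, and 8.1% and 9.51% with siOGT1. TNFAIP3, which encodes A20 and is not among the 64, averaged 25.7, 19.3 and 14.5 FPKM with siNC, siOGT1 and siOGT2. Interferon-stimulated genes gave no member: of 52 tested, 52 fell with siOGT2 and 49 with siOGT1.

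Enzymes of glycans and lipids completed the named roles. POMK, a kinase of the O-mannose glycan on dystroglycan, stood at 4.39 and 4.59 FPKM with siNC, 4.18 and 4.10 FPKM with siOGT1, and 3.09 and 3.10 FPKM with siOGT2. GCNT2, the branching enzyme of the I blood group antigen, stood at 8.29 and 8.73 FPKM, then 8.41 and 8.27 FPKM, then 6.56 and 6.13 FPKM. The phospholipases PLAAT3 and PLA2G4C lay at 77.8% and 75.6% of siNC with siOGT2. Of 68 tested glycosylation genes, 17 rose and 6 fell with siOGT2 by limma (13 and 8 under the trimmed-mean scaling), beside 22.1% and 13.4% of all tested genes, and the median was 0.06 beside 0.045.

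The remaining genes have no shared role. SPANXA2, a cancer-testis gene, had the largest siOGT1 difference of the 64, at 35.6 and 29.9 FPKM with siNC, 38.3 and 42.7 FPKM with siOGT1, and 24.6 and 22.2 FPKM with siOGT2. Its reads cannot be told apart from those of the near-identical SPANXA1, and NPIPA5 has many close copies. TCP11L2 stood at 7.87 and 8.25 FPKM, then 7.31 and 7.62 FPKM, then 5.45 and 5.18 FPKM. Annotated exons of 7 of the 64 genes overlap a gene with a mean of at least 1 FPKM on the other strand, among them PRPF39 with FKBP3 and TCP11L2 with CKAP4, and of 3 one on the same strand. With strandedness not given in the sources used here, such reads cannot be assigned.

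**Figure D3:**
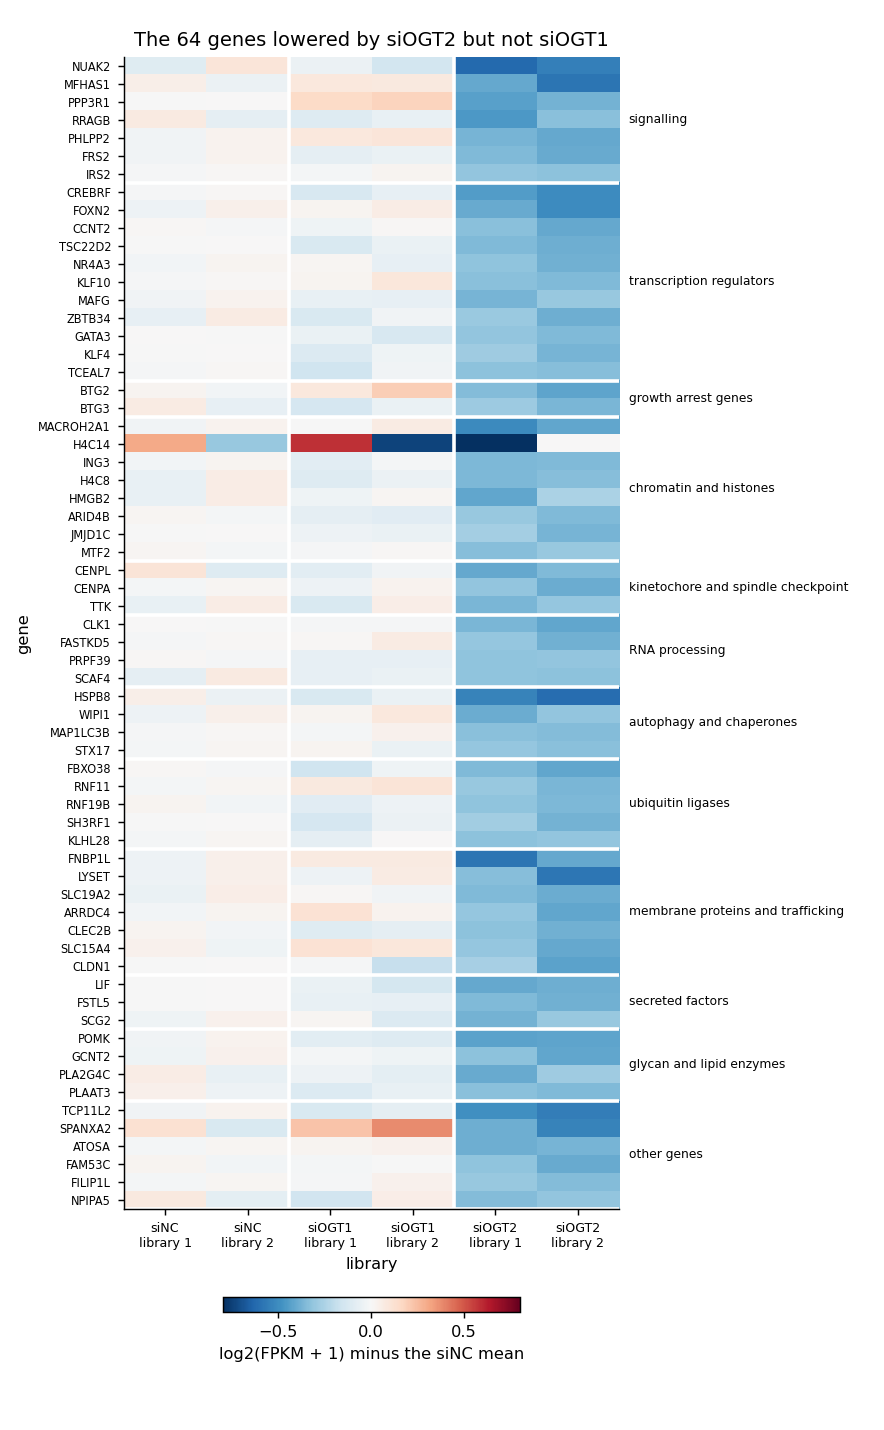
Rows are the 64 genes grouped by role and columns the 6 libraries. Colour gives log2(FPKM + 1) minus the gene's siNC mean, from blue (lower) to red (higher), and the first siOGT2 library of H4C14 lies beyond the end of the scale. The 2 siOGT2 columns are blue in every row except the second library of H4C14, while siOGT1 columns are pale or mixed.

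Apart from their levels, the 64 genes were compared with other genes by the sequence of the longest 3′ UTR of a protein-coding transcript, known for all 64 and for 10485 tested genes. Their median 3′ UTR was 1510 bases long, against 1454 over the tested genes, with a GC content of 35.5% against 41.5%. Every heptamer was ranked by how much lower its carriers were with siOGT2 than in the mean of the other groups, after regression on UTR length and GC, on odd-numbered autosomes. That ranking put CGTACTC first, which 1 of the 64 genes (1.56%) and 1.34% of the tested genes hold. On even-numbered autosomes it put ATAGTGT first of 15542, and on odd-numbered ones it ranked 6 of 15746.

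ATAGTGT was found in the 3′ UTR of 21 of the 64 genes (32.8%), against 11.2% of the tested genes and 11.5% of those with at least 3 FPKM in siNC. The 31 genes on odd-numbered autosomes held it in 9 cases (29%), against 10.3% of tested genes there. Their values did not enter the ranking on even-numbered autosomes, but they are not a held-out set. The main ranking was that on odd-numbered autosomes, and ATAGTGT was taken from the alternative with both rankings known. Both rankings also used the siOGT2 and siOGT1 levels, which chose the 64 genes. With a following A, as ATAGTGTA, it occurred in 11 of 64 (17.2%) against 2.98%, and in 6 of 31 (19.4%) against 2.71% on odd-numbered autosomes. ATAGTGTA was picked after values were seen, so no part of the 64 genes is held out for it. Per kilobase of 3′ UTR the 64 genes had 0.2 ATAGTGT sites, against 0.0622 over the tested genes. Neither the shares nor the site counts were matched for GC content, which was lower in the 64 genes, or for UTR length. Only the mRNA strand was searched, ATAGTGTA sites are also ATAGTGT sites, and a match is a description of the letters.

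The share was lower in genes that both siRNAs lowered. By the same siOGT2 threshold, 373 genes had a siOGT1 mean more than 0.10 below siNC, and of the 371 with a 3′ UTR 11.3% held ATAGTGT, close to the tested genes. MAP2K4 and the ZNF and TRIM names, set aside for the 64 genes and the 89 below, were not set aside here. By the mirrored thresholds 89 genes were lowered by siOGT1 and not siOGT2, and of the 88 with a 3′ UTR 20.5% held it. Those 88 differed in another heptamer, GCTCTTA, at the bottom of both rankings: 80.7% of them held it, against 3.12% of the 64 genes and 9.79% of the tested genes. The levels that chose those 88 genes also entered both rankings, so the share of GCTCTTA in them is no test of that word. None of these differences in share was tested.

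**Figure D4:**
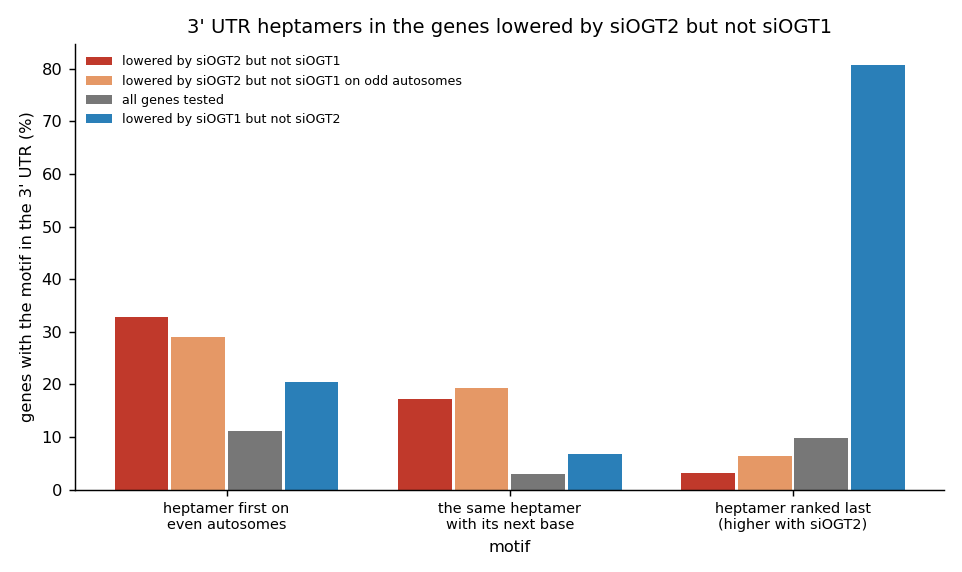
Bars give the percent of genes with a motif in their longest 3′ UTR, for the 64 genes lowered by siOGT2 but not siOGT1 (red), those of them on odd-numbered autosomes (orange), all tested genes (grey) and genes lowered by siOGT1 but not siOGT2 (blue). From left to right the motifs are ATAGTGT, ATAGTGTA and GCTCTTA. Red exceeds grey for the first pair (32.8% against 11.2%, and 17.2% against 2.98%) and lies below it for the last (3.12% against 9.79%). The levels that chose the red, orange and blue genes also entered the heptamer rankings. ATAGTGTA and GCTCTTA were picked after values were seen, so the bars are no test. CGTACTC, first in the main ranking, is not drawn (1.56% of the 64 genes, 1.34% of tested genes).

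The rule holds all 64 genes within its thresholds, so carriers and non-carriers of ATAGTGT can differ only within them. The 21 carriers had a median siOGT2 difference of -0.37 and siOGT1 difference of -0.01, and the other 43 genes -0.34 and -0.05. Carriers had longer 3′ UTRs, with a median of 2164 bases against 899. Over all tested genes, 9310 without the heptamer had a median siOGT2 difference of 0.05 and siOGT1 difference of 0.033, the 1004 with 1 ATAGTGT had 0.006 and 0.021, and the 171 with 2 or more had 0.022 and 0.046. The 312 with ATAGTGTA had -0.015 and 0.021, and -0.011 and 0.02 without the 64 genes. The median of siOGT2 minus siNC was thus no lower with 2 or more copies than with 1. That of siOGT2 minus siOGT1 was 0.01 without the heptamer, -0.014 with 1 copy and -0.022 with 2 or more. None of these differences was tested. Of the genes left out by name, MAP2K4 held 2 copies in its 3′ UTR and ZNF79 none. MAP2K4, a kinase upstream of JNK and p38, stood at 13.8 and 14 FPKM with siNC, 14.5 and 14.7 FPKM with siOGT1, and 8.29 and 8.02 FPKM with siOGT2.

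By role, 7 of the 21 carriers were transcription regulators, a group of 11 genes, and none was among the 8 chromatin and histone genes, the 3 kinetochore genes or the 6 genes of no shared role. Beside the genes shown above they included GCNT2, CCNT2, SLC19A2, TSC22D2 with 2 sites, FSTL5, SLC15A4, WIPI1, NR4A3, FASTKD5, ZBTB34, RNF11, MAFG and GATA3. NUAK2, MFHAS1, KLF10, MAP1LC3B, CLK1, CENPA, TTK and MACROH2A1 had no ATAGTGT in the longest 3′ UTR. A second word, the AU-rich TATTTAT, a core of the AU-rich elements of many short-lived mRNAs, occurred in 32 of the 64 genes (50%) against 37.4% of tested genes, at 0.599 against 0.326 sites per kilobase. It occurred in 47.7% of the 88 genes lowered by siOGT1 and not siOGT2, and in 39.4% of the 371 genes lower with both. These values were not matched for GC content or UTR length, and none of the differences was tested.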

How the data were processed

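The deposited table holds FPKM values per Ensembl gene, 1 column per library. Per the submitters' processing notes, cutadapt 1.15 and HISAT2 with GRCh38 were used. Names of the counting program and annotation were not given in the sources used here. Reads and their totals were recovered from the FPKM steps (whole reads for 99.41% of genes above 0, tolerance 0.01 reads). They served only to give depth and to build the simulated data below. The 64 genes, the gene lists, roles and motifs were chosen with earlier results of these data known. Roles, ATAGTGTA, TATTTAT and GCTCTTA were picked after values were seen.

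Fits used log2(FPKM + 1) for genes with a mean of at least 1 FPKM, over all 6 libraries with a mean per group (limma 3.58.1 with an intensity trend, R 4.3.3, 3 residual degrees of freedom), two-sided, with Benjamini-Hochberg adjustment over 10547 genes. The pseudocount shrinks fold changes of low genes. On simulated data for siOGT2 against siNC with 10423 genes, 73% of 200 genes set to change 1.25-fold were found, with 14 false calls. Those changes were placed only in genes above a minimum of reads. All genes shared the same relative spread beyond counting noise, and the other genes were left unchanged. The naming rule took OGT and OGA, the 25 genes with the largest fall, the 5 highest in siNC, the 5 highest with siOGT1, those nearest the thresholds, up to 4 per list or family and 10 heptamer carriers; other members were named after their values were seen. Alternatives covered pseudocount, filter, scaling, thresholds, replicate block and leaving out each library.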

Additional observations from a re-analysis of the deposited data

How the results depend on the processing

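The number of genes meeting the rule, 64, became 16 with a pseudocount of 5 (13 of them among the 64), 39 with a siNC minimum of 10 FPKM and 7 with thresholds of -0.40 and -0.05. The trimmed-mean scaling gave 71 genes, of which 43 were among the 64. Leaving out 1 library at a time gave 56 to 78 genes, and 20 of the 64 met the rule in all 6 of these settings. Over 11 settings (pseudocount, scaling and single libraries) CLK1, FNBP1L, MFHAS1, KLF10, BTG2, FRS2, FOXN2 and SPANXA2 met it in each. BTG3 met it in 3. Fewer than 8 settings kept 22 of the 64 genes, among them NUAK2, TCP11L2 and CREBRF (5 each) and LIF (4). Without the first siOGT2 library, H4C14 moved from -0.448 to 0.005, and without the second to -0.901, so its place rests on the first.

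Calls over all genes for siOGT2 against siNC numbered 3740, and 2218 to 3744 with 1 library left out (2321 and 2218 without siNC library 1 or 2, 2219 without siOGT2 library 2). For siOGT1 against siNC they numbered 1857, with 1138 without the low-value filter and 943 to 1738 with 1 library left out (943 and 980 without siNC library 1 or 2, 1200 without siOGT1 library 2). For siOGT2 against siOGT1 they numbered 1750, with 1017 without the filter and 813 to 1532 with 1 library left out (1056 and 813 without siOGT2 library 1 or 2). When a group is left with 1 library, that library is assumed to vary like the others. Same-numbered libraries did not deviate together (r = -0.022, -0.026 and 0.049 over genes). This does not show how they were made, and the labels do not say whether the numbers pair them. With the replicate block the 3 counts were 3636, 1773 and 1674. OGT stayed below siNC and past the threshold with both siRNAs in every setting run.

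The share of the 64 genes with the chosen 3′ UTR word was 1.56% for CGTACTC, 26.6% for its last 6 bases (19.3% of tested genes), 3.12% for its first 6 (5.6%), 32.8% for the word ranked first on even-numbered autosomes and 34.4% when the ranking used no regression on length and GC, where the word was TATATTT and tested genes held it in 37.5%. With 2 libraries per group and a fewest of 39 reads in a library (median over the 64 genes 774), differences this small in low genes are the least certain.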
